A study of Mus musculus with 8 samples.

Results

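The mitosis genes described here are 30 genes whose products build the spindle, hold chromosomes on it or drive the entry into and exit from mitosis. They were found by name in the array annotation, from a list drawn up with earlier results of these data known. On each array 41 of the 55681 non-control probes carry 1 of the 30 symbols. Of these, 40 probes passed the detection filter used here (signal well above background in 4 or more of the 8 arrays), so all 30 genes were measured, 29 of them well above background on all 8 arrays.

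The samples were MAM326 cells, a mouse mammary cancer cell line, split by flow sorting according to GFP fluorescence. GFP-positive cells gave 4 arrays and GFP-negative cells another 4, made from 4 independent experiments at different passages in which cells were sorted 2 days after seeding. The labels used here do not say what drives GFP in this line, and they name no treatment, gene deletion or other allele in either fraction. Each array was hybridised with Cy3-labelled cRNA made from 20 ng of total RNA. All values come from bulk RNA of a single line, in which fewer cells in G2 or mitosis and less mitotic RNA per cell cannot be told apart.

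Mitosis is started by the kinase Cdk1 bound to cyclin A or cyclin B, helped by the Polo and Aurora kinases. Chromosomes are attached to spindle microtubules by kinetochores, and the spindle checkpoint holds back the anaphase-promoting complex (APC/C), a ubiquitin ligase, until every chromosome is attached. The mRNAs of these genes climb together in G2 of each cycle and are low in resting cells, so they are widely used as a readout of proliferation. Their promoters often carry a cell cycle genes homology region, abbreviated CHR (TTTGAA or TTCGAA), which the DREAM complex binds, and CCAAT boxes, which NF-Y binds.

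The promoters of 4 of the genes are shown because they hold both kinds of letters and stand for both ends of the list: Bub1 and Cenpa were among the lowest in GFP-positive cells relative to GFP-negative cells, and Hmmr and Ube2c were on the positive side. Each is 200 bases long, from 150 bases before to 50 after the RefSeq start site on GRCm38.p6, read 5′ to 3′ along the gene, with the CHR letters and the CCAAT boxes, on either strand, in capitals. The windows are chr2:127831810-127832009 on the minus strand for Bub1, chr5:30666736-30666935 on the plus strand for Cenpa, chr11:40733388-40733587 on the minus strand for Hmmr and chr2:164769779-164769978 on the plus strand for Ube2c.
Bub1: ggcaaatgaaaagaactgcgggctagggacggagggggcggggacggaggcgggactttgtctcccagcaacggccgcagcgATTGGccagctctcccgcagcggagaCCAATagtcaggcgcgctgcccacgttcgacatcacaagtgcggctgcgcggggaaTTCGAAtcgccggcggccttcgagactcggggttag
Cenpa: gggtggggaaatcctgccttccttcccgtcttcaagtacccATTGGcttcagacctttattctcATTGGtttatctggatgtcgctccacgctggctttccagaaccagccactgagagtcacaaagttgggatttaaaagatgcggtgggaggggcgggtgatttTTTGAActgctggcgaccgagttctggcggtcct
Hmmr: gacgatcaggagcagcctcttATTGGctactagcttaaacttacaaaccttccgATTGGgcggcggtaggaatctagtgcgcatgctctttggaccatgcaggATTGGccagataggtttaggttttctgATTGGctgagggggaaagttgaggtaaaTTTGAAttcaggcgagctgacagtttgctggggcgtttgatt
Ube2c: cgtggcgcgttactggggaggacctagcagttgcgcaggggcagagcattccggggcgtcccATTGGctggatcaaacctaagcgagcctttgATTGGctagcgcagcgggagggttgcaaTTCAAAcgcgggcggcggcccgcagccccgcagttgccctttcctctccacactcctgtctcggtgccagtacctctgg

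The CHR letters of Bub1, Cenpa and Hmmr lie just downstream of the start site, beginning at base 15, 17 and 9, while those of Ube2c lie before it and read on the other strand. RefSeq promoters of 300 bases (250 before to 50 after the start) were matched for 25 of the 30 genes, 27 promoters in all. TTTGAA or TTCGAA on either strand was found in 22 of the 27 promoters, against 19.2% of all 32851 promoters in the table. CCAAT on either strand was in 23 of 27 against 37.4%, and both together were in 20 of 27 against 7.5%. The E2F letters TTCCCGC or TTGGCGC, whose reverse complement GCGCCAA can overlap CCAAT, were in 3 of 27 against 6.8%. Of the matched genes, Birc5, Ccnb1, Cenpe, Nek2 and Nusap1 had neither TTTGAA nor TTCGAA in the window. TTTGAA or TTCGAA was held by 6 of the 7 matched genes that had an unadjusted p under 0.05 and by 14 of the 18 other matched genes, counts that were not tested. Ccna2 and Cdc25c were among the genes with no promoter matched.

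The mitosis genes as a group lay slightly lower in GFP-positive than in GFP-negative cells, and no single gene passed the test. Of the 30 genes, 25 (83.3%) had a negative difference, where 60.7% of all 19781 features tested did. The median log2 difference, GFP-positive minus GFP-negative, was -0.157 over the mitosis genes and -0.0614 over all features, a gap of -0.0956. The gap was smaller for bright genes set beside features of like brightness. The 14 brightest genes had a median of -0.165, against -0.15 for such features, and the next 8 had -0.127, against -0.097. The next 5 had -0.235, against -0.053, and the 3 dimmest -0.116, against 0.0087. Differences ran from -0.408 (Ccna2) to 0.426 (Aurkb). With limma and Benjamini-Hochberg adjustment over all features, 0 of the 30 genes passed 0.05, against a background of 2.55% of features called in either direction. With arrays weighted by quality 3 of the 30 genes passed (Cdc25c, Bub1 and Cenpa), where 7.39% of all features did, and with a trended robust prior 1 did (Bub1), where 5.89% of features did. At an unadjusted p under 0.05, 9 of 30 (30%) were lower in GFP-positive cells, where 15.1% of all features were, and 0 were higher, where 7.82% of features were. The count of 9 became 5 without GFP-positive replicate 1 (9.78% of all features), 5 without GFP-negative replicate 4 (10.6% of features) and 6 without GFP-negative replicate 1 (12.9% of features). Groups did not overlap, with every GFP-positive array below every GFP-negative array, for 5 genes (16.7%), against 11.6% of all features, and 0 genes had the opposite order, against 5.07%.

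**Figure D1:**
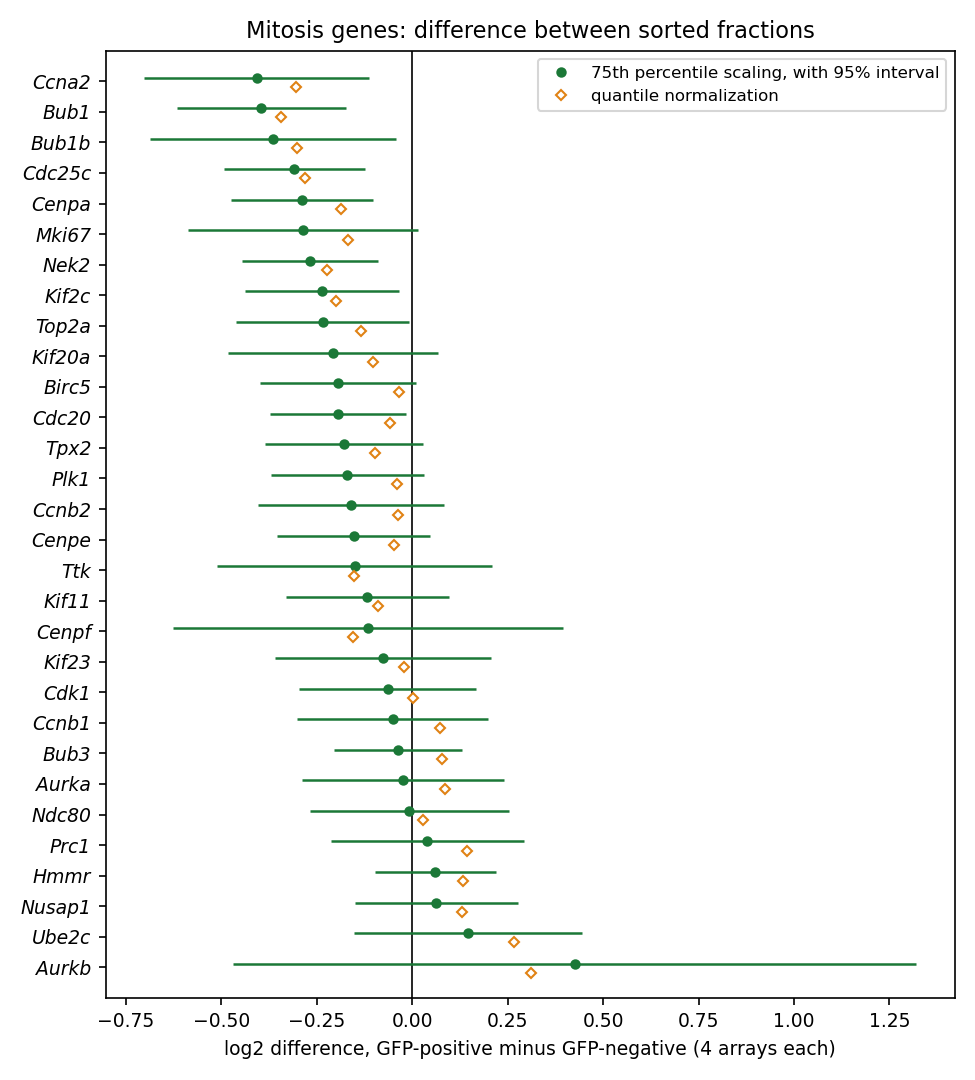
Log2 difference (GFP-positive minus GFP-negative, 4 arrays each) of the 30 mitosis genes, 1 gene per line. Circles with lines are the differences after scaling to the 75th percentile with 95% intervals and diamonds are the differences after quantile normalization. The circles of 25 genes lie left of 0, from Ccna2 at -0.408, and the lines of 21 genes cross 0.

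Levels below are log2 signals relative to the 75th percentile of the same array, so 0 is that percentile, and the order of values is replicate 1 to 4 in each fraction. Replicates have no order in time, and levels of different genes come from different probes and are not compared.

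The 3 spindle checkpoint genes of the Bub family had negative differences, with a median of -0.364. Bub1, a checkpoint kinase that recruits other checkpoint proteins to kinetochores, had levels of 1.92, 1.90, 1.60 and 1.91 in GFP-positive cells, against 2.13, 2.26, 2.19 and 2.33 in GFP-negative cells. All GFP-positive arrays were below all GFP-negative arrays. The difference was -0.395 ± 0.0960 (SE), a fold of 0.760 with a 95% interval of 0.652 to 0.886, and limma's adjusted p was 0.0696. Its probe (chr2:127626988-127627047 on mm9) was printed as 10 spots on each array, and the SD over the usable spots of an array was 0.049 to 0.096, while the SD between arrays was 0.156 among GFP-positive and 0.0884 among GFP-negative arrays. Bub1b, which encodes the checkpoint protein BubR1, read 2.26, 2.40, 1.98 and 2.43 in GFP-positive cells and 2.39, 2.74, 2.54 and 2.86 in GFP-negative cells. The ranges overlapped through GFP-negative replicate 1, and the difference was -0.364 ± 0.140 (adjusted p = 0.178, limma). Bub3, the third checkpoint protein of the list and a partner of both, showed almost the same level in the fractions, at -0.0369 ± 0.0725.

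Among the cyclins and Cdk1 and their activator, all 5 differences were negative, with large gaps between them. Ccna2, cyclin A2, which acts in S phase and G2, gave 4.39, 4.70, 4.27 and 4.48 in GFP-positive cells, against 4.83, 4.92, 4.63 and 5.09 in GFP-negative cells. This was the most negative difference of the 30 genes, -0.408 ± 0.128 (fold 0.754, interval 0.615 to 0.925, adjusted p = 0.118, limma), with overlap of GFP-positive replicate 2 and GFP-negative replicate 3. Cdc25c, a phosphatase that activates Cdk1, measured 0.46, 0.61, 0.43 and 0.44 in GFP-positive cells and 0.68, 0.82, 0.76 and 0.92 in GFP-negative cells. Its groups did not overlap, and the difference was -0.309 ± 0.0801 (adjusted p = 0.0796, limma).

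Cdk1 itself and the B cyclins differed less on the probes that represent them. Cdk1 had 3.03, 3.15, 3.01 and 3.00 in GFP-positive cells and 3.37, 3.02, 2.98 and 3.06 in GFP-negative cells, a difference of -0.0647 ± 0.101 in which GFP-negative replicate 1 alone stood above the rest. Its 2 dimmer probes pointed the other way, at 0.0274 and 0.158, and Cdk1 was the only 1 of 7 genes with several measured probes whose probes differed in sign. Ccnb2, cyclin B2, read 5.35, 5.21, 5.19 and 5.44 in GFP-positive cells, against 5.25, 5.66, 5.47 and 5.45 in GFP-negative cells, a difference of -0.160 ± 0.105 with wide overlap. Ccnb1, cyclin B1, gave 5.28, 5.28, 5.16 and 5.12 in GFP-positive cells and 5.48, 5.01, 5.22 and 5.34 in GFP-negative cells on its brightest probe, a difference of -0.0516 ± 0.109.

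The other Ccnb1 probes gave larger differences. The probe at chr13:101553449-101553508 (mm9) had 1.69, 1.72, 1.67 and 1.59 in GFP-positive cells, against 2.03, 1.84, 2.06 and 2.02 in GFP-negative cells, a difference of -0.319 ± 0.0779 (adjusted p = 0.0775 over all probes, limma). The probe at chr13:101551224-101551283 had 1.93, 1.99, 2.01 and 1.91 in GFP-positive cells and 2.24, 2.20, 2.21 and 2.14 in GFP-negative cells, a difference of -0.241 ± 0.0656 (adjusted p = 0.0974, limma). On both of these probes every GFP-positive array was below every GFP-negative array, unlike on the brightest probe, and which transcript each probe reads was not analysed here. Over all 40 measured probes of the mitosis genes, 32 differences were negative, 14 (35%) were lower in GFP-positive cells at an unadjusted p under 0.05 against 14% of all 27600 probes, and 0 passed the adjusted threshold, which 2% of all probes did.

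**Figure D2:**
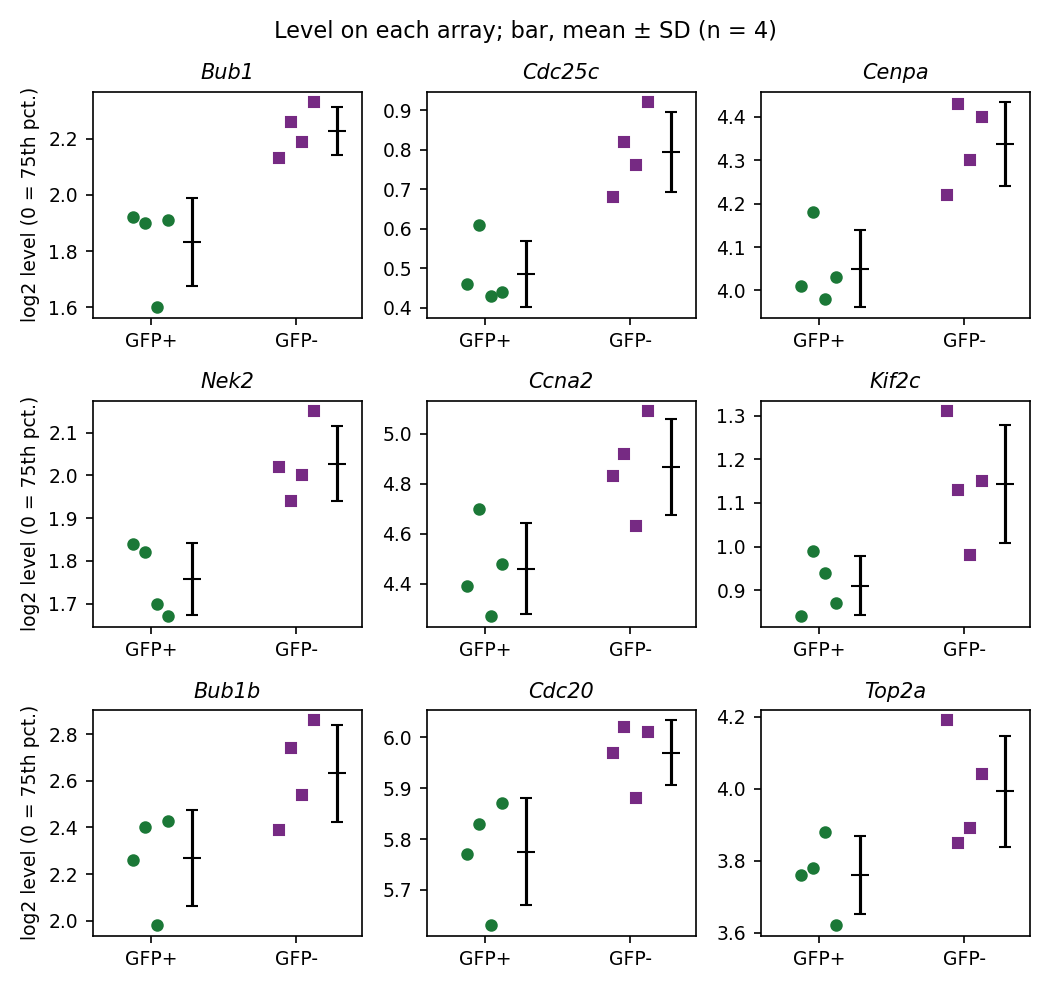
Log2 level (0 is the array's 75th percentile, each panel with its own scale) on each array for the 9 mitosis genes lower in GFP-positive cells at an unadjusted p under 0.05. Circles are the 4 GFP-positive arrays, squares the 4 GFP-negative arrays, and bars the mean ± SD; the groups do not overlap for Bub1, Cdc25c, Cenpa, Nek2 and Cdc20.

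The mitotic kinases were mixed. Nek2, a kinase that separates centrosomes, gave 1.84, 1.82, 1.70 and 1.67 in GFP-positive cells, against 2.02, 1.94, 2.00 and 2.15 in GFP-negative cells. The groups did not overlap, and the difference of -0.267 ± 0.0771 was about as large in slide row 1 (-0.274) as in slide row 2 (-0.261; adjusted p = 0.101 over all arrays, limma). Plk1, the Polo kinase of mitotic entry and spindle assembly, read 5.57, 5.74, 5.44 and 5.66 in GFP-positive cells and 5.85, 5.71, 5.69 and 5.83 in GFP-negative cells, a difference of -0.171 ± 0.0869 with overlap (adjusted p = 0.281, limma). Aurka, the Aurora kinase of spindle poles, had 4.85, 4.97, 4.61 and 4.89 in GFP-positive cells and 4.99, 4.81, 4.63 and 4.99 in GFP-negative cells. The ranges nearly coincided, at -0.0250 ± 0.115.

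Aurkb, the Aurora kinase of the chromosomal passenger complex, was the dimmest of the genes and could hardly be measured. It was well above background on 3 of 4 GFP-positive and 2 of 4 GFP-negative arrays, with -4.69, -2.91, -4.48 and -4.67 in GFP-positive cells, against -4.49, -4.92, -4.64 and -4.40 in GFP-negative cells. Its positive difference of 0.426 ± 0.388 came from GFP-positive replicate 2: without that array the difference was 1.61e-05. Ttk, the checkpoint kinase also called Mps1, gave -0.151 ± 0.156, and it too was highest on GFP-positive replicate 2 (-1.04, against -1.75 to -1.54 on the other GFP-positive arrays and -1.46 to -1.26 in GFP-negative cells).

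At centromeres and kinetochores all 5 differences were negative, from -0.289 to -0.00804. Cenpa, the histone H3 variant that marks centromeres, had 4.01, 4.18, 3.98 and 4.03 in GFP-positive cells, against 4.22, 4.43, 4.30 and 4.40 in GFP-negative cells. Every GFP-positive array lay below every GFP-negative array, and the difference was -0.289 ± 0.0810 (fold 0.819, interval 0.719 to 0.932, adjusted p = 0.0958, limma). Birc5, survivin, the passenger complex subunit that docks Aurora B, was at -0.195 ± 0.0884 (adjusted p = 0.234, limma), and its other 2 probes also gave negative values, -0.194 and -0.283. Cenpe, a kinetochore motor that carries chromosomes to the spindle equator, differed by -0.154. Cenpf, a large kinetochore protein, was at -0.116 with the wide SE of 0.221, and Ndc80, which grips the microtubule, was at -0.00804 ± 0.113.

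The regulators of the APC/C split. Cdc20, the activator that the checkpoint holds back, read 5.77, 5.83, 5.63 and 5.87 in GFP-positive cells, against 5.97, 6.02, 5.88 and 6.01 in GFP-negative cells. Its groups did not overlap by a margin of 0.01, and the difference was -0.194 ± 0.0775 (adjusted p = 0.192, limma). Ube2c, the ubiquitin-conjugating enzyme of the APC/C, gave 5.24, 5.34, 4.95 and 5.12 in GFP-positive cells and 5.29, 4.83, 4.88 and 5.08 in GFP-negative cells. Its difference was positive, 0.147 ± 0.129 (adjusted p = 0.539, limma), with wide overlap, and its other probe gave 0.104.

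The 4 kinesins all had negative differences. Kif2c, a depolymerase that corrects wrong attachments, had 0.84, 0.99, 0.94 and 0.87 in GFP-positive cells, against 1.31, 1.13, 0.98 and 1.15 in GFP-negative cells, a difference of -0.235 ± 0.0875 that overlapped by 0.01 between GFP-positive replicate 2 and GFP-negative replicate 3 (adjusted p = 0.167, limma). Kif20a, a motor of cytokinesis, was at -0.208 ± 0.119. Kif11, which pushes spindle poles apart, was at -0.118 ± 0.0927, and Kif23, a subunit of centralspindlin, was at -0.0762 ± 0.123, with a second probe above background on 1 of 8 arrays and not used.

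Of the 4 spindle assembly factors 3 had small positive differences, with a median of 0.0498 over the 4, though median scaling of the arrays in place of the 75th percentile turned those 3 negative. Nusap1, a microtubule-binding protein of the central spindle, read 2.74, 2.74, 2.45 and 2.68 in GFP-positive cells and 2.57, 2.55, 2.50 and 2.74 in GFP-negative cells, a difference of 0.0626 ± 0.0924 within the spread of either fraction. Hmmr, a spindle pole protein, was at 0.0605 ± 0.0689, and Prc1, which bundles microtubules at the midzone, was at 0.0391 ± 0.109. Tpx2, the activator of Aurora A, was on the other side at -0.178 ± 0.0896.

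Of the chromosome proteins, Mki67, the proliferation antigen that coats mitotic chromosomes, had 4.96, 4.82, 5.24 and 5.12 in GFP-positive cells, against 5.61, 5.15, 5.30 and 5.23 in GFP-negative cells. GFP-negative replicate 1 was the highest array and the ranges overlapped, with a difference of -0.286 ± 0.130 (interval -0.587 to 0.0147, adjusted p = 0.236, limma) and -0.222 on its other probe. Top2a, the topoisomerase that untangles sister chromatids, gave 3.76, 3.78, 3.88 and 3.62 in GFP-positive cells and 4.19, 3.85, 3.89 and 4.04 in GFP-negative cells, a difference of -0.235 ± 0.0985 (adjusted p = 0.208, limma). For both genes the difference was larger in slide row 2 (-0.480 for Mki67, -0.343 for Top2a) than in slide row 1 (-0.0923 and -0.127).

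Single arrays weighed on the list. Relative to each gene's mean over 8 arrays, the median mitosis gene stood at -0.11, 0.00, -0.17 and -0.07 on the GFP-positive arrays, against 0.14, -0.01, -0.01 and 0.13 on the GFP-negative arrays. The median of all features moved likewise but less, at -0.04, -0.01, -0.04 and -0.02, against 0.05, 0.01, 0.02 and 0.05. Under quantile normalization the median mitosis gene stood at -0.04, 0.00, -0.09 and -0.01, against 0.08, -0.06, -0.04 and 0.09. The counts that follow are under 75th percentile scaling. GFP-positive replicate 3 was the lowest array for 16 of the 30 genes, and GFP-negative replicates 4 and 1 were the highest for 11 and 10. The shares of these counts over all features were not computed. GFP-negative replicates 2 and 3 and GFP-positive replicate 2 sat near the middle. Over the 435 pairs of mitosis genes the median correlation across the 8 arrays was 0.34, given as a description, since the arrays include both fractions.

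**Figure D3:**
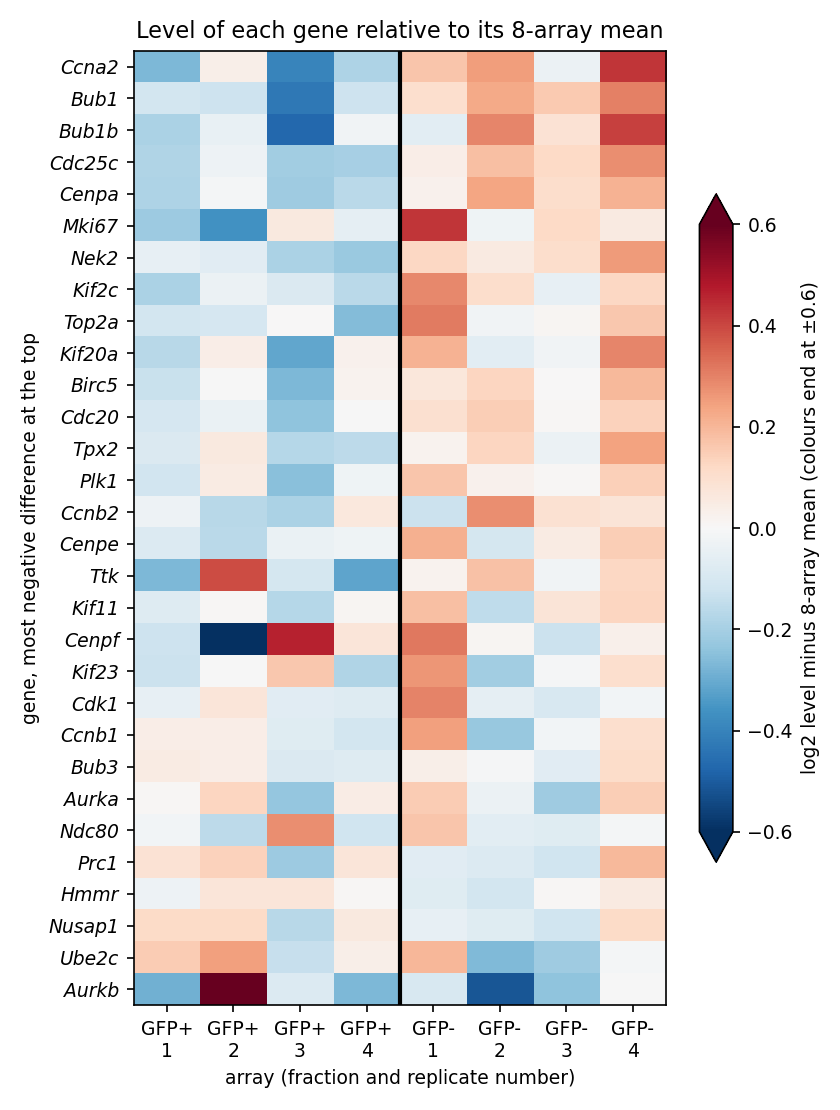
Log2 level of each mitosis gene on each array minus that gene's mean over the 8 arrays, with the 4 GFP-positive arrays left of the 4 GFP-negative arrays and genes ordered from the most negative difference. GFP-positive replicate 3 is the lowest array for 16 genes and GFP-negative replicates 4 and 1 the highest for 11 and 10.

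The 8 arrays lay on 1 slide in 2 rows, each row with 2 arrays of either fraction, so differences could be taken within rows. Row 1 held GFP-positive replicates 1 and 3 with GFP-negative replicates 2 and 4, and row 2 held the others. An effect of the row therefore cannot be told apart from a difference between replicates. In deviations from group means, GFP-positive replicate 3 correlated most with GFP-negative replicate 1 (0.60), an array of the other row. The same held for GFP-positive replicate 4 with GFP-negative replicate 2 (0.65). The median difference was -0.148 within row 1, against -0.0632 for all features, and -0.0888 within row 2, against -0.0549. In each row 23 of 30 genes were negative, where 11407 (row 1) and 11706 (row 2) of 19781 features were. Below the median of all features lay 21 genes in row 1 and 18 in row 2. Negative in both rows were 19 of 30 genes, a count whose share over all features was not computed. Several of the most negative genes had larger differences in row 1. Ccna2 gave -0.674 in row 1 and -0.141 in row 2, Bub1b -0.682 and -0.0456, and Bub1 -0.537 and -0.253. At an unadjusted p under 0.05, 7 genes were lower within row 1, where 14.4% of all features were, and 0 within row 2, where 5.16% were (limma on 4 arrays each), and 0 passed the adjusted threshold in either.

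Part of the negative shift was shared with all bright probes. Under scaling to the 75th percentile the median difference of all features was 0.0087 for those with a mean level below 0, -0.053 between 0 and 2, -0.097 between 2 and 4, and -0.15 above 4. Of the mitosis genes, 14 were in the brightest class, where their median difference was -0.165, close to that of all 3580 features of the class. The 8 genes between 2 and 4 had a median of -0.127, near the -0.097 of their class. The 5 genes between 0 and 2 had a median of -0.235, below the -0.053 of their class, and the 3 genes below 0 had one of -0.116, against 0.0087. Quantile normalization, which gives all arrays the same distribution, removed most of the dependence on level: the class medians of all features were then -0.035, -0.025, -0.025 and -0.016, from the dimmest to the brightest. The brightest mitosis genes then had a median of -0.0383, those between 2 and 4 one of -0.0595 and those below 0 one of -0.152. Those between 0 and 2 kept one of -0.201.

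Over the whole list, quantile normalization moved the median difference to -0.0533, against -0.0254 for all features. Negative differences numbered 20 of 30 (66.7%), where 55.3% of all features were negative. At an unadjusted p under 0.05, 6 genes (20%) were lower in GFP-positive cells, against 10.2% of all features, and 0 were higher, against 8.84%. No gene passed the adjusted threshold, which 2.16% of features did. Bub1 (-0.343, adjusted p = 0.102), Cdc25c (-0.281, adjusted p = 0.108) and Nek2 (-0.224, adjusted p = 0.144) moved little in limma under this setting. Cdc20 shrank to -0.0582, Plk1 to -0.0398, Birc5 to -0.0338 and Ccnb2 to -0.0367. Cdk1, Ccnb1, Aurka, Bub3 and Ndc80 turned positive, between 0.00244 and 0.0854, and Ube2c reached 0.266 ± 0.115 (adjusted p = 0.264, limma).

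**Figure D4:**
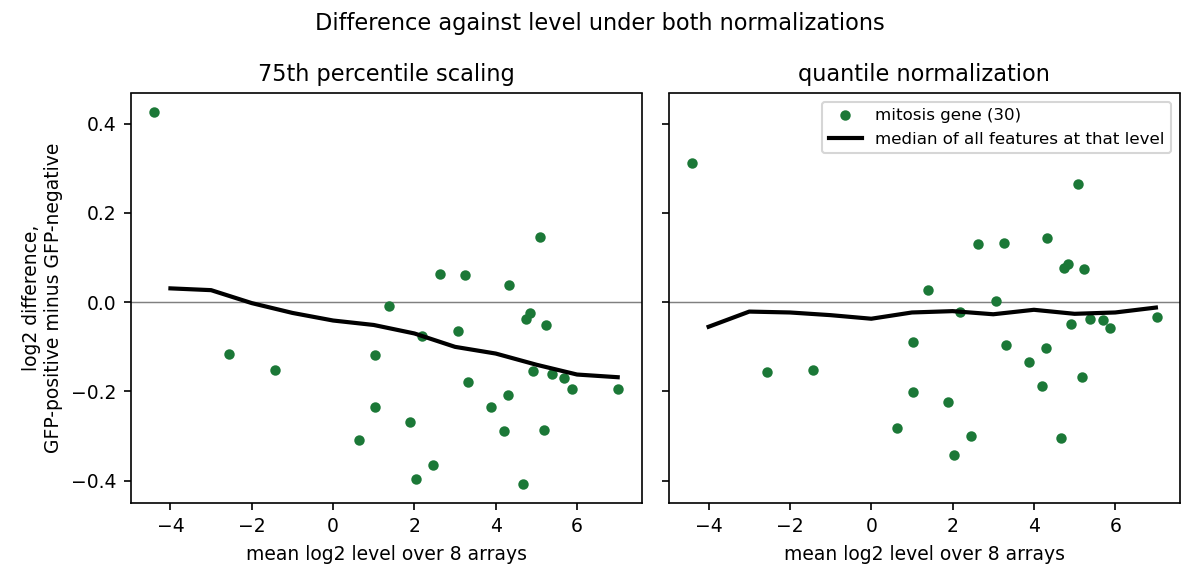
Log2 difference (GFP-positive minus GFP-negative) of each mitosis gene against its mean log2 level over 8 arrays, under 75th percentile scaling (left) and quantile normalization (right). The line is the median of all features at that level, which slopes down on the left and is nearly flat on the right. The 5 genes between levels 0 and 2 have a median of -0.235 on the left and -0.201 on the right. The 8 genes between 2 and 4 have medians of -0.127 and -0.0595, and the 14 genes above 4 have -0.165 and -0.0383.

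Other genes of mitosis, from 5 lists of 127 measured genes that share no gene with the 30, had a median difference of -0.177. Of these genes, 105 had negative differences (60.7% of all features did), 57 were lower and 5 higher at an unadjusted p under 0.05 (15.1% and 7.82% of features), and 4 fell and 2 rose past the adjusted threshold (limma), where 0.733% of all features were called lower and 1.82% higher. Under quantile normalization the median was -0.121, with 95 genes negative, where 55.3% of all features were. At an unadjusted p under 0.05 (limma) 37 were lower, against 10.2% of all features, and 10 higher, against 8.84%. Past the adjusted threshold were 2 in each direction, where 79 of all 19781 features were called lower and 349 higher. Condensin and cohesin genes, which compact chromosomes and hold sisters together, had the most negative median, -0.241, with 17 of 18 negative and 2 past the threshold. Under quantile normalization their median was -0.17, with 17 of 18 negative and 1 past the threshold. Ncapg2, a condensin II subunit, fell to 2.08, 2.08, 2.24 and 2.27 in GFP-positive cells, against 2.63, 2.68, 2.58 and 2.72 in GFP-negative cells, a difference of -0.484 ± 0.0767 (adjusted p = 0.0208, limma). Pds5b, a cohesin regulator, fell by 0.375 on the log2 scale (adjusted p = 0.0318, limma). That call was lost under quantile normalization (adjusted p = 0.0518) and without any 1 of the 8 arrays.

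Among other spindle and cytokinesis genes the calls went both ways. Psrc1, a microtubule regulator that is also a known p53 target, rose to 1.90, 1.62, 1.54 and 1.85 in GFP-positive cells, against -0.61, -0.50, -0.50 and -0.51 in GFP-negative cells. The difference of 2.26 ± 0.0970 (adjusted p = 0.000123, limma) was the same in both slide rows (2.23 and 2.29). Ckap2, a spindle protein, rose by 0.678 ± 0.104 (adjusted p = 0.0186, limma), with 2.67, 2.53, 2.77 and 2.43 in GFP-positive cells and 2.00, 1.72, 1.98 and 1.98 in GFP-negative cells. Plk4, the kinase of centriole duplication, fell by 0.486 on the log2 scale (adjusted p = 0.0191, limma), with -1.77, -1.63, -1.58 and -1.67 in GFP-positive cells and -1.24, -1.06, -1.22 and -1.19 in GFP-negative cells. In these 3 genes the groups did not overlap.

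Of 30 G2/M regulators, 1 passed the threshold. Mybl2, B-Myb, a transcription factor that activates many mitosis genes, fell by 0.544 on the log2 scale (adjusted p = 0.0479, limma), with 4.71, 5.01, 4.81 and 4.77 in GFP-positive cells, against 5.51, 5.17, 5.28 and 5.52 in GFP-negative cells. Under quantile normalization its adjusted p was 0.0658. Pbk, a mitotic kinase, was at -0.394 (adjusted p = 0.0654, limma). Gtse1, a G2 protein named here after its values were seen, had the list's largest positive difference, 1.08 ± 0.255 (adjusted p = 0.0663, limma). None of 17 APC/C and separase genes or of 33 other kinetochore and checkpoint genes passed the adjusted threshold. An unadjusted p under 0.05 (limma) was reached by 8 and 16 of them in the lower direction, against 15.1% of all features. In the higher direction it was reached by 0 and 1, against 7.82% of features. Under quantile normalization 3 and 12 were lower, against 10.2% of all features, and 2 and 1 higher, against 8.84%. The smallest p-values were those of Anapc1, the large APC/C scaffold (-0.358, adjusted p = 0.0511), with Cdc26, a small APC/C subunit (-0.378, adjusted p = 0.0935), and of Sgo2a, a protector of centromeric cohesion (-0.320, adjusted p = 0.0650), with Mad2l1, the checkpoint protein Mad2 (-0.277, adjusted p = 0.0791), all by limma.

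Genes of DNA replication and S phase had a median of -0.191 over 30 measured genes, and of -0.0671 under quantile normalization. Mcm10, an initiation factor, fell by 0.522 on the log2 scale (adjusted p = 0.0191), Cdc6, a licensing factor, by 0.510 (adjusted p = 0.0431) and E2f8, a repressor of S phase genes, by 0.369 (adjusted p = 0.0465), all by limma. Under quantile normalization Mcm10 still passed (adjusted p = 0.0424), and Cdc6 (adjusted p = 0.0644) and E2f8 (adjusted p = 0.0761) did not. Of 11 cell cycle inhibitors, 9 had positive and 2 negative differences, with a median of 0.274. Past the threshold were 4, all higher, where 1.82% of all features were called higher. The other inhibitors ran from -0.690 (Cdkn1c) to 0.377 (Cdkn2b), with Cdkn2a at -0.0207 and Cdkn1b at 0.0627. Cdkn1a, the inhibitor p21, rose to 4.98, 4.70, 5.12 and 4.53 in GFP-positive cells, against 3.33, 1.96, 2.52 and 2.65 in GFP-negative cells, a difference of 2.21 ± 0.275 (adjusted p = 0.00750, limma). Ccng1 (1.82), Btg2 (1.16) and Rb1 (1.03), which encode cyclin G1, an antiproliferative protein and the retinoblastoma protein, also rose. The array highest in Cdkn1a, GFP-positive replicate 3, was the lowest for 16 of the 30 mitosis genes. It also had the highest 75th percentile signal (606.4) and the largest share of probes well above background (57.4%). Its median mitosis gene stood at -0.17 under 75th percentile scaling and at -0.09 under quantile normalization. Among the GFP-negative arrays, high Cdkn1a did not go with low mitosis genes. Among them replicate 1 was highest both in Cdkn1a (3.33) and in the median mitosis gene (0.14 relative to each gene's mean). Replicate 2, the lowest in Cdkn1a (1.96), had a median mitosis gene at -0.01. Whether the levels of Cdkn1a and the mitosis genes are linked was not tested.

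**Figure D5:**
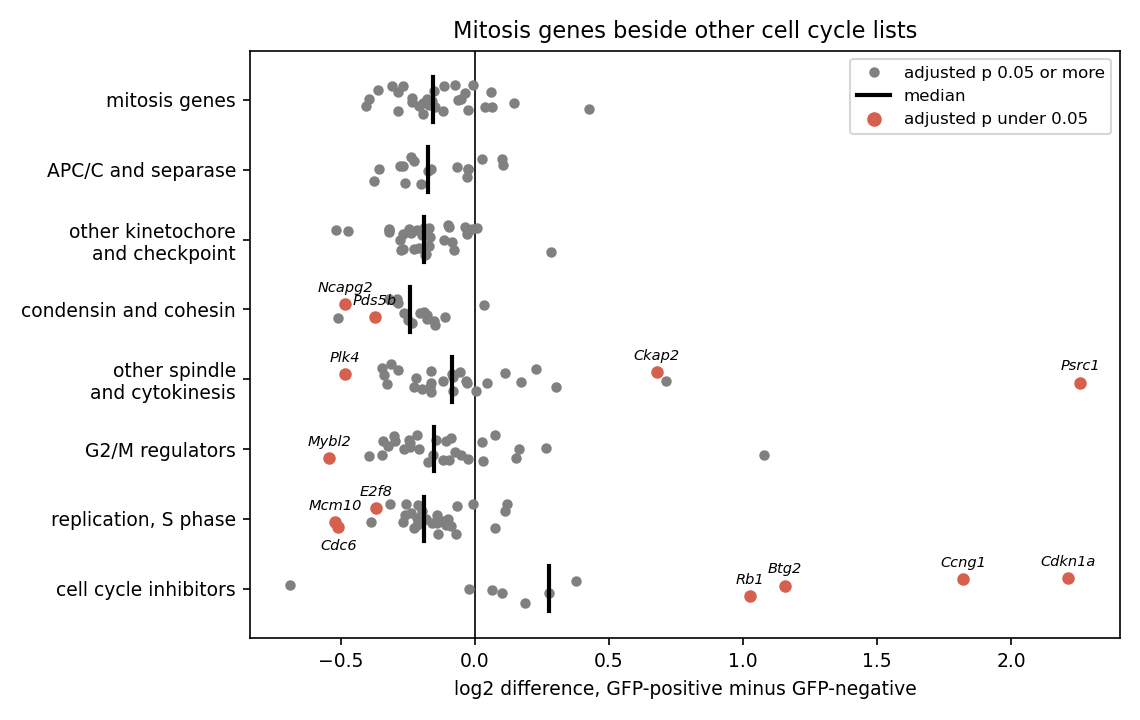
Log2 difference (GFP-positive minus GFP-negative) of each measured gene in the mitosis list and 7 other cell cycle lists, 1 point per gene, with the median of each list as a bar. Red points passed an adjusted p of 0.05 and are named; none lies in the mitosis list, whose median is -0.157, while 4 of the 11 inhibitors lie at 1.03 or more.

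Several of these calls rest on the full set of arrays. Leaving out any 1 array ended the call of E2f8, and so did leaving out any array but GFP-negative replicate 1 for Cdc6 and any but GFP-positive replicate 2 for Mybl2, with adjusted p up to 0.131, 0.149 and 0.158. Without GFP-positive replicate 1, GFP-negative replicate 3 or GFP-negative replicate 4, Ckap2, Plk4, Ncapg2 and Mcm10 also missed the threshold, with adjusted p up to 0.0925. GFP-negative replicate 2 likewise ended the calls of Plk4, Ncapg2 and Mcm10 when left out, GFP-positive replicate 4 that of Plk4 and GFP-positive replicate 3 that of Mcm10. Ccng1 missed it without GFP-positive replicate 1 or GFP-negative replicate 4 (adjusted p up to 0.0606). Psrc1, Cdkn1a, Rb1 and Btg2 passed with each array left out in turn.

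Markers of cell types also differed between arrays. All 6 mammary epithelial markers had positive differences (median 0.436, 0 past the threshold), with list means of 3.30 to 4.09 on GFP-positive arrays and 2.88 to 3.64 on GFP-negative arrays. Within slide row 2, Krt8 (-0.136), Krt18 (-0.230), Epcam (-0.228) and Cdh1 (-0.303) were negative, against 0.924, 0.591, 1.19 and 1.01 in row 1. Krt5 and Krt14 were positive in both rows. All 6 fibroblast markers had negative differences (median -1.78, 0 past the threshold, limma), with list means of -1.74 to 1.50 in GFP-positive cells and 0.04 to 2.90 in GFP-negative cells, the lowest on GFP-positive replicate 3. Col1a1, a fibroblast collagen, differed by -4.65 within slide row 1 and by 0.403 within row 2, where other replicates were compared. Pdgfra, Col1a2, Col3a1 and Pdgfrb were likewise negative in row 1 and positive in row 2 (0.313 to 0.944), and Dcn was negative in both. Leukocyte markers had list means of 0.97 to 1.17 in GFP-positive cells and 0.53 to 0.92 in GFP-negative cells over the 3 measured of 7. Of these only Cd68 rose (0.997, adjusted p = 0.00439, limma), while Cd3e (-0.0764) and Itgam (0.0257) were near 0. Ptprc was above background on 1 array at most and Lyz2 on 0. Of 4 endothelial markers 2 were measured, with list means of -0.99 to -0.66 in GFP-positive cells and -1.01 to -0.61 in GFP-negative cells, and Cdh5 and Tek were above background on 0 arrays. The part of these markers in the mitosis gene differences was not tested.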

How the data were processed

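Per the file headers, each file is the scanner output of 1 array made by Agilent Feature Extraction 10.7.3.1, with probe positions on mm9. The deposited intensity values used were the authors' processed signal, already background-corrected, and for an alternative the mean and local background signals. No later step is recorded in the labels or headers used here.

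Outlier spots (106 to 186 per array) were left out and no spot was saturated. The log2 processed signal was set relative to each array's 75th percentile, and spots of a probe were averaged. Between 45.1% and 57.4% of probes were well above background per array. A probe was kept if its signal was well above background in 4 or more arrays (27600 probes), and the brightest of a gene's kept probes stood for it, named through RefSeq of GRCm38.p6 where its accession matched (13557 of 19781 features) and by the file's name otherwise. The difference between GFP-positive and GFP-negative arrays was estimated in limma 3.58.1 in R 4.3.3 (files read by data.table, version 1.17.8; lmFit and eBayes, two-sided, no replicate block) with Benjamini-Hochberg adjustment over all features and a threshold of 0.05. A second fit ran on all kept probes. Errors are standard errors of the fit and intervals are 95%. The steps were tested on simulated data.

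Groups and replicate numbers came from the labels, which do not say which arrays share an experiment, so p-values measure the spread between these arrays. Arrays with the same number did not vary together (correlations of deviations from group means -0.03, 0.07, 0.02 and 0.18), so the numbers were not used as pairs. The alternatives were other normalizations, background corrections, filters and probe rules, blocks for replicate number and slide row, array weights, a trended robust prior, single slide rows and leaving out each array.

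The 30 genes, the other gene lists and the markers were chosen with earlier results of these data known. Array values are given for the 8 genes with the smallest p, the 3 most positive, and Mki67, Top2a, Cdk1, Ccnb1, Ccnb2, Aurka, Aurkb and Plk1. From each other list, genes past the threshold or up to 2 with the smallest p are named.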

Additional observations from a re-analysis of the deposited data

Results flagged for a closer look

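Within groups of 4 arrays, 60 checks for an array set apart from the other 3 (Dixon's ratio above 0.829) marked 4 values, where chance marks about 1 group in 20. Bub1 in GFP-positive replicate 3 was low at 1.60, with the other GFP-positive arrays at 1.90 to 1.92. Without that array the Bub1 difference was -0.317, against -0.395 with all arrays. Cdc25c in GFP-positive replicate 2 was high at 0.61, with the others at 0.43 to 0.46, and its difference was -0.350 without that array. Aurkb in GFP-positive replicate 2 was at -2.91, with the others at -4.69 to -4.48, and this array carried its whole positive difference. Prc1 in GFP-negative replicate 4 was high at 4.53, with the others at 4.21 to 4.26.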

How the results depend on the processing

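The 8 arrays limit the precision of every value, and dim probes such as that of Aurkb are the least certain. The count of mitosis genes past the threshold was 0 as reported and under all alternatives except these: 3 passed with array weights (Cdc25c, adjusted p = 0.0393; Bub1, 0.0403; Cenpa, 0.0444; limma) and 1 with a trended robust prior (Bub1, 0.0413). The median difference of the 30 genes stayed negative under all 21 alternatives, and so did the median of all features. For the 30 genes it was -0.0533 under quantile normalization, -0.0535 under cyclic loess and -0.180 to -0.132 with single arrays left out. Median scaling gave -0.279 and moved the median of all features to -0.184. The gap between the 2 medians, -0.0956 as reported, ran from -0.0279 under quantile normalization to -0.144 with no filter on dim probes. Within slide row 2 it was -0.0339. Features past the threshold numbered 505 and became 204 under median scaling, 786 with normexp, 152 with no filter on dim probes, 278 with slide row as a block, 1461 with array weights, 1165 with the trended prior, 1047 within slide row 1 and 0 within slide row 2 (where limma had an unadjusted p under 0.05 for 1136 higher and 1020 lower features), and 151 (without GFP-positive replicate 1) to 425 with single arrays left out. Calls were 360 higher and 145 lower, against 183 and 21 under median scaling, 410 and 75 under cyclic loess, 349 and 79 under quantile normalization, 425 and 361 with normexp, 679 and 782 with array weights and 538 and 627 with the trended prior. With replicate number as a block, 216 features, 0 mitosis genes and 4 genes of the other cell cycle lists (13 without it) passed, and the median of the mitosis genes stayed at -0.157. The highest correlation of each GFP-positive array was with a GFP-negative array of another number, 0.60 for GFP-positive replicate 3 with GFP-negative replicate 1 and 0.65 for GFP-positive replicate 4 with GFP-negative replicate 2.

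Genes near 0 changed sign, none of them past the threshold in either setting, and the cause was not tested. Quantile normalization gave 0.00244 for Cdk1, 0.0734 for Ccnb1, 0.0854 for Aurka, 0.0772 for Bub3 and 0.0275 for Ndc80. Cyclic loess gave 0.0267, 0.0705, 0.0914, 0.0781 and 0.0566 for the same genes and 0.00191 for Kif23. Median scaling gave -0.0599 for Nusap1, -0.0621 for Hmmr and -0.0835 for Prc1. The mean of kept probes gave 0.0401 for Cdk1, and array weights gave 0.00922 for Aurka. Slide row 1 gave 0.0459 for Ccnb1, 0.146 for Cenpf, 0.168 for Ndc80, 0.0702 for Kif23, -0.0474 for Nusap1 and -0.122 for Prc1, and row 2 gave 0.118 for Aurka and 0.0369 for Ttk. With single arrays left out, Cdk1 ran from -0.108 to 0.0233, Ccnb1 from -0.136 to 0.021, Aurka from -0.0998 to 0.0474, Cenpf from -0.288 to 0.0777, Ndc80 from -0.102 to 0.0455 and Prc1 from -0.00073 to 0.119.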
